A study of Xenopus allofraseri with 8 samples.

Results

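The regulatory genes *mef2a*, *esrra*, *baz1b*, *spib* and *mapk8* are described here in the knee extensor muscles of 8 adult *Xenopus allofraseri* males. Their members are all the isoforms that the assembly lists under 5 of its 163981 Trinity genes, which makes 44 of 218541 transcripts. The Trinity genes are TR50478|c0_g1 (*mef2a*), TR38030|c4_g1 (*esrra*), TR69111|c4_g2 (*baz1b*), TR27424|c8_g1 (*spib*) and TR1677|c2_g1 (*mapk8*), and the symbols are those the study's annotation gave them. The genes were chosen by the fold change and FDR of edgeR's exact test, which called 1 isoform of each between endurant and burst-performant individuals in these same frogs. Differences between the groups in these genes are therefore a description and no independent evidence.

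The frogs were caught in the wild in a single pond, and no treatment or engineered allele is given for them. The endurant group held frogs A, D, E and G, and the burst-performant group held frogs B, C, F and H (n = 4 each). The groups came from a clustering of 4 performance traits (velocity, acceleration, time and distance), and each frog gave 1 polyA RNA library from the right leg. The sum of estimated counts ran from 4449192 in frog H to 17359253 in frog E, and frogs D and H were the lowest in it. The study lists the most read pairs for frog C, and more for D than for A, G and H. Yet the sums for C and D were 9120121 and 4715751, each below that of frog G at 9794387. Frogs C and D thus had few estimated counts for their read pairs, and the cause was not tested. The transcripts carry assembly identifiers without gene names, so that the muscle origin of the libraries was not checked against markers. In bulk muscle, fewer cells of a type and less RNA per cell cannot be told apart.

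Muscle gene programmes are set by transcription factors, by the chromatin they act on and by the kinases that relay signals to them. MEF2 factors, which bind DNA through a MADS box, activate muscle genes, and the estrogen-related receptor ERRα, coded by *esrra*, is an orphan nuclear receptor that drives genes of mitochondrial and oxidative metabolism. In mammals, the product of *baz1b* is a subunit of an ISWI chromatin remodelling complex, that of *spib* is an ETS family factor best known from B lymphocytes, and *mapk8* codes for the stress-activated kinase JNK1.

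Isoform i2 of *spib*, i7 of *esrra* and i7 of *mapk8* were higher in endurant individuals, and isoform i7 of *mef2a* and i3 of *baz1b* were lower in them. The 5 gene totals overlapped between the groups. Kallisto shares a read pair among the isoforms it matches, so that the counts per isoform are themselves estimates. How alike the isoforms are in sequence was not examined. Of the 44 isoforms, 29 had a CPM (counts per 1000000) above 1 in at least 2 frogs and were tested, and 15 were not. The filter used CPM before TMM scaling, and the CPM values given below are scaled by TMM. None of the 29 passed edgeR's quasi-likelihood test at an FDR of 0.05 with Benjamini-Hochberg adjustment and a log2 fold change of 2, where 0.0% of all tested transcripts passed. At an unadjusted p under 0.05 that test held 8 of the 29, against 3.66% of all tested transcripts. edgeR's exact test called 5 (0.196% of all), DESeq2 called 5 (0.275%) and limma on log2(TPM + 1) called 1 (0.00899%). The exact test is the one by which the genes were chosen, and nothing is read from these counts. In it, isoform i7 of *esrra* lay just inside the threshold (FDR 0.0337) and isoform i8 of *baz1b* just outside (FDR 0.0917). Groups did not overlap in CPM for 7 of the 29 tested isoforms, where the same held for 2.88% of all tested transcripts. The fitted change was above 0 in 15 of the 29, where 50.6% of all tested transcripts were above 0, and below 0 in 14, with a median log2 fold change of 0.08, beside 0.01 over all tested transcripts.

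**Figure D1:**
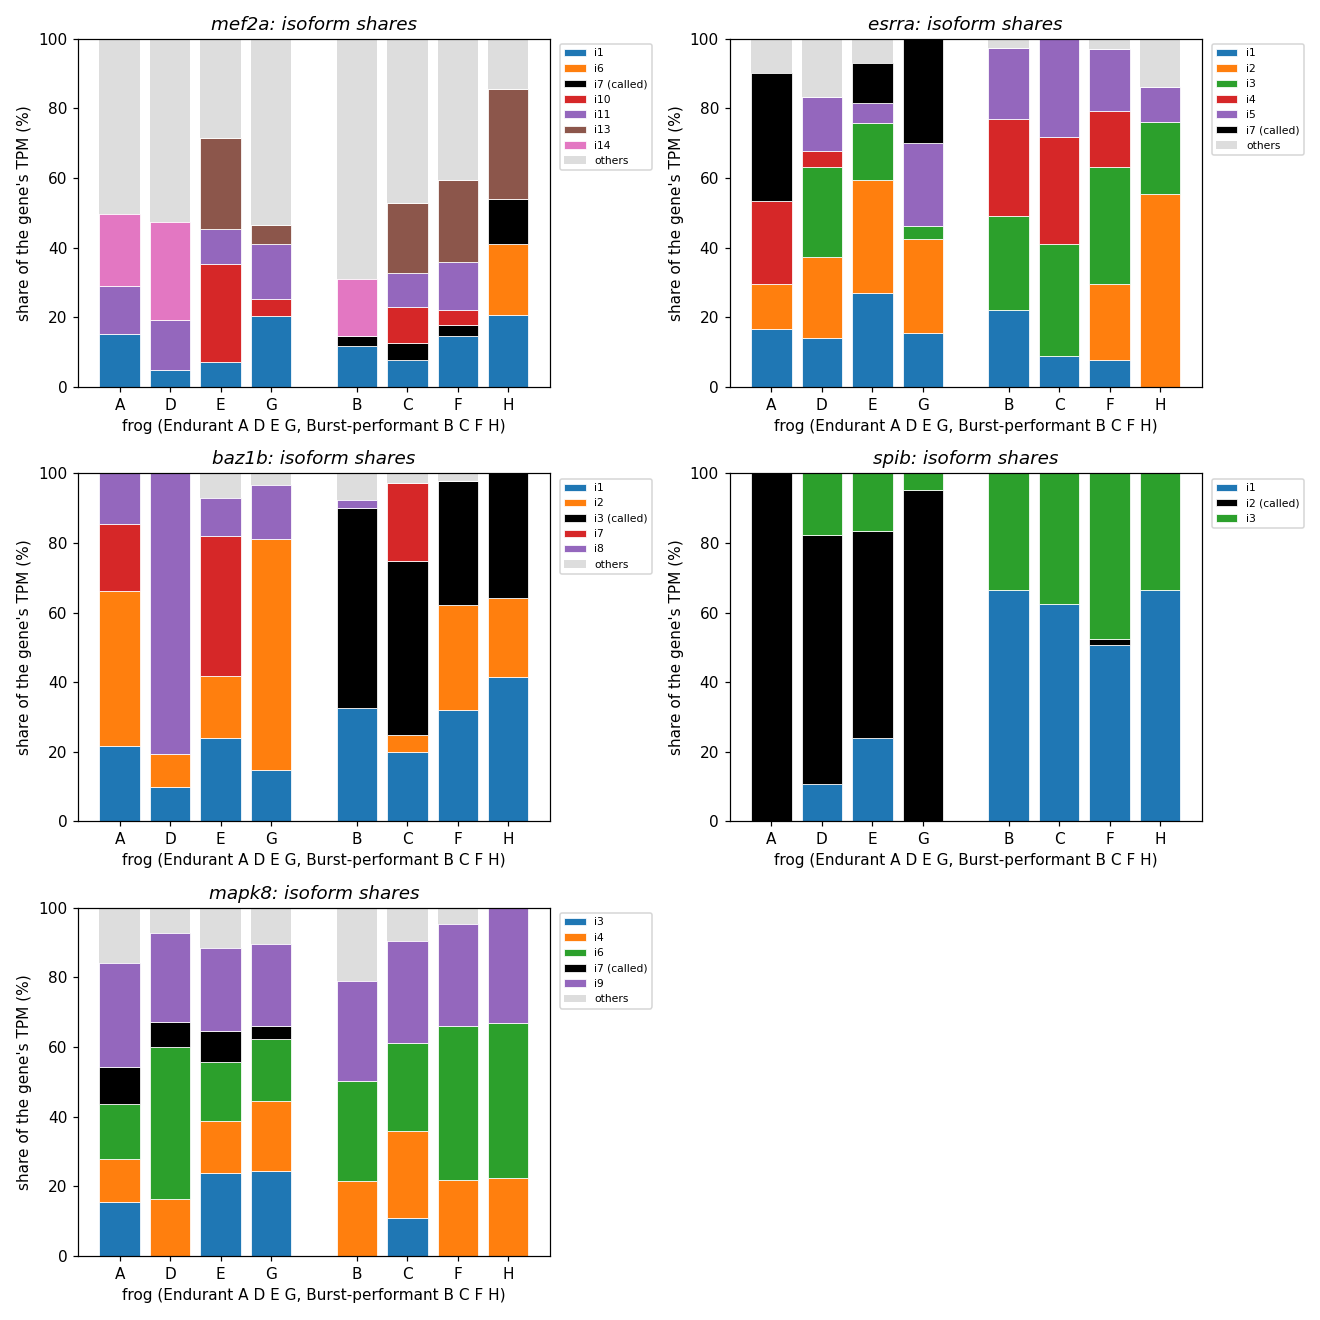
Share of each gene's TPM (%) held by its isoforms in each frog, as stacked bars, with endurant frogs left of burst-performant frogs and the isoform called by the exact test in black. Isoform i2 of *spib* held at least 59.6% of its gene in endurant frogs and at most 1.80% in burst-performant frogs, whereas the leading isoform of *mef2a* varied within both groups.

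Among the transcription factors, *mef2a* had the most isoforms, 15, of which 10 were tested. Isoform i7 (4315 bases) had 0 counts in all 4 endurant frogs, against 12, 18, 25 and 13 counts across B, C, F and H (burst-performant). It was thus counted in every burst-performant frog and in no endurant frog, at low depth. Against a floor of 3 counts over the group, it was at least 23.2-fold lower in endurant individuals. As a share of the TPM of *mef2a* it took 2.86%, 5.08%, 3.16% and 12.8% in frogs B, C, F and H. As a share of the counts of the gene it took 6.53%, 9.36%, 5.56% and 22.8% in the same frogs. In frog H only isoform i13 held more of the counts. In the endurant frogs, 3 counts would have been 1.06% to 2.42% of the counts of the gene.

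The other isoforms of *mef2a* changed places from frog to frog. By share of TPM, 5 different isoforms led the gene over the 8 frogs. They were i14 in A and D, i10 in E and i1 in G, against i5 in B and i13 in C, F and H. The leads in B and G did not hold by share of estimated counts. There i14 led in B with 27.6%, against 10.7% for i5, and i11 led in G with 27.7%, against 21.6% for i1. Isoform i13 held 0.0%, 0.0%, 26.1% and 5.41% of the TPM in frogs A, D, E and G, against 0.0%, 20.03%, 23.5% and 31.7% in frogs B, C, F and H. The groups overlapped, since frog B had none of it and frog E had more than frogs C and F. Isoform i11 (4323 bases), close to i7 in length, had the highest mean TPM of the gene in endurant frogs. It had 45, 29, 41 and 79 counts in frogs A, D, E and G, against 0, 34, 109 and 0 counts in B, C, F and H. The groups overlapped in i11, and sharing of read pairs between i7 and i11 was not tested. Isoform i6 was counted only in frog H, where 5 counts gave 20.6% of the TPM.

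The gene *esrra*, which codes for ERRα, had 8 isoforms, of which 7 were tested. Isoform i7 (1696 bases) had 63, 0, 49 and 117 counts across A, D, E and G (endurant), against 0 counts in all 4 burst-performant frogs. Frog D had none, so that the groups overlapped at 0. The isoform was at least 74.5-fold higher in endurant individuals over the pooled counts. It made up 36.9%, 11.4% and 30.0% of the TPM of the gene in frogs A, E and G. In burst-performant frogs C and H the gene had 50 counts each, so that 3 counts were 6.05% and 5.96% of it, and a share below that was not detectable at this depth. In frog F, with 793 counts of the gene, 3 counts were 0.378%.

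By share of TPM, 4 different isoforms of *esrra* led the gene. They were i7 in A and G, i3 in D and i2 in E, against i4 in B, i3 in C and F and i2 in H. The leads in C, D and G did not hold by share of estimated counts. There i4 led in C with 35.96%, against 31.45% for i3. Isoform i2 led in D with 27.33%, against 26.72% for i3, and in G with 29.92%, against 29.77% for i7. Isoform i1 held 18.3% ± 5.92 of the TPM in endurant and 9.61% ± 9.15 in burst-performant individuals. Isoform i5 held 11.2% ± 10.5 in endurant and 19.1% ± 7.42 in burst-performant individuals. The groups overlapped in both. No isoform of *esrra* was counted in all 8 frogs.

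All 3 isoforms of *spib* were tested, and it was the gene whose usage separated the groups most. Isoform i2 (1092 bases) had 13.1, 9.67, 14.1 and 14.2 CPM across A, D, E and G (endurant), against 0, 0, 0.637 and 0 CPM across B, C, F and H (burst-performant). Every endurant frog lay above every burst-performant frog, and frog F was the one burst-performant frog with counts of it. The log2 fold change was 5.89 ± 1.13 (SE), with 540 counts in endurant and 10 in burst-performant individuals. The other isoforms were placed the other way round. Isoform i1 (775 bases) had 0, 0.879, 3.68 and 0 CPM in frogs A, D, E and G, against 10.4, 8.95, 11.97 and 19.6 CPM in frogs B, C, F and H. Isoform i3 (519 bases) had 0, 0.879, 1.45 and 0.274 CPM in frogs A, D, E and G, against 2.93, 2.98, 6.37 and 5.59 CPM in frogs B, C, F and H. Neither overlapped between the groups.

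By share of TPM, isoform i2 led *spib* in all 4 endurant frogs and isoform i1 in all 4 burst-performant frogs. Isoform i2 held 81.6% ± 19.2 in endurant and 0.45% ± 0.90 in burst-performant individuals (SD, n = 4 each). Isoform i1 held 8.64% ± 11.3 in endurant and 61.5% ± 7.55 in burst-performant individuals. Frog E was the most mixed endurant frog, with 59.6% of i2, 23.9% of i1 and 16.5% of i3. In frogs B, C and H, which had no count of i2, 3 counts were 1.74%, 3.54% and 3.32% of the counts of the gene.

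**Figure D2:**
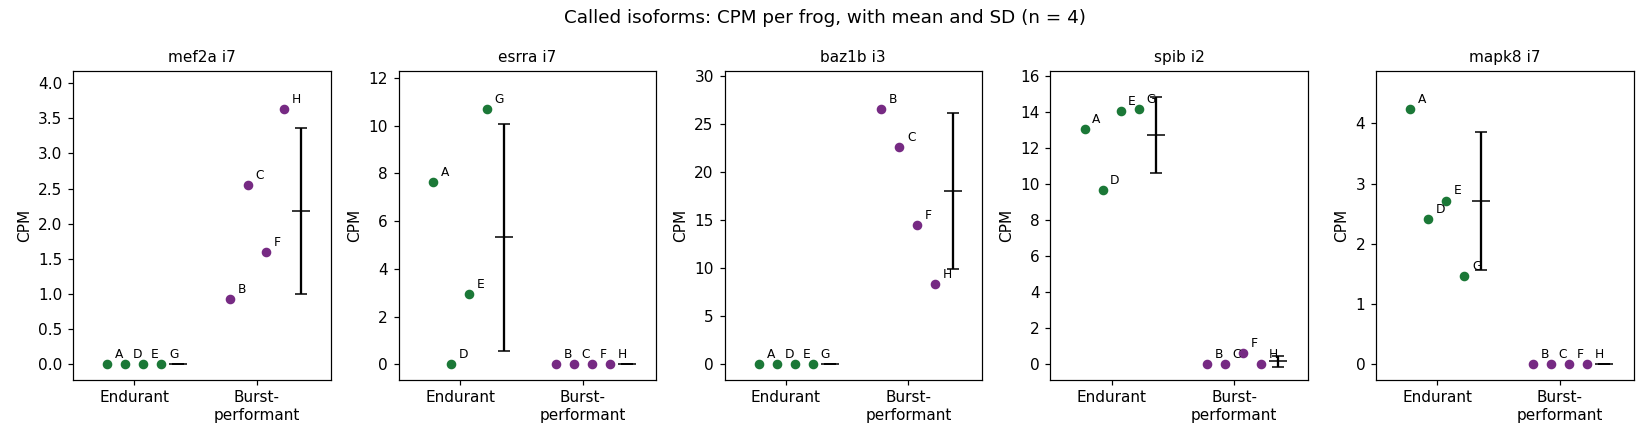
CPM of the isoform of each gene called by the exact test, per frog (points, with frog letters), with the mean and SD (n = 4), endurant left of burst-performant. Endurant frog D lies at 0 for isoform i7 of *esrra*, and burst-performant frog F lies at 0.637 CPM for isoform i2 of *spib*.

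The chromatin gene *baz1b* had 8 isoforms, of which 4 were tested. Isoform i3 (5825 bases) had 0 counts in all 4 endurant frogs, against 345, 159, 228 and 30 counts across B, C, F and H (burst-performant). It was at least 260.4-fold lower in endurant individuals. It took 57.5%, 49.9%, 35.8% and 35.8% of the TPM of the gene in frogs B, C, F and H, and 3 counts would have been 0.617% to 3.58% of the counts of the gene in endurant frogs.

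Further long isoforms of *baz1b* carried counts. Isoform i2 (5828 bases) had 324, 9, 168 and 220 counts across A, D, E and G (endurant), against 0, 16, 192 and 19 counts across B, C, F and H (burst-performant). The groups overlapped in it. Isoform i8 (5596 bases) had 101, 72, 100 and 49 counts in frogs A, D, E and G, against 14, 0, 0 and 0 counts in frogs B, C, F and H, and the groups did not overlap. Summed over i2, i3 and i8, a sum formed after the values were seen, the level was 51.4, 17.7, 16.2 and 24.6 CPM in frogs A, D, E and G, against 27.7, 24.8, 26.7 and 13.8 CPM in frogs B, C, F and H. The groups overlapped in this sum. Isoform i1 (2288 bases) was counted in all 8 frogs. It held 17.6% ± 6.44 of the TPM in endurant and 31.5% ± 8.86 in burst-performant individuals. By share of TPM it led the gene in frog H with 41.6%, against 35.8% for i3. By share of estimated counts i3 led in frog H with 48.4%, against 21.0% for i1. Isoform i7 of *baz1b* (294 bases) held 40.1% of the TPM of the gene in frog E on 8 counts, so that its share rests on few read pairs.

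The kinase gene *mapk8* had 10 isoforms, of which 5 were tested and 1 had no count in any frog. Isoform i7 (2729 bases) had 35, 11, 45 and 16 counts across A, D, E and G (endurant), against 0 counts in all 4 burst-performant frogs. It was counted in every endurant frog and was at least 34.8-fold higher in endurant individuals. As a share of TPM it was minor, with 10.7%, 7.22%, 8.78% and 3.72% in frogs A, D, E and G. As a share of the counts of the gene it took 14.6%, 8.27%, 10.4% and 4.34% in the same frogs. In burst-performant frogs, 3 counts were 0.588% to 3.33% of the counts of the gene, the highest in frog H.

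Isoforms i4, i6 and i9 of *mapk8* were counted in all 8 frogs. Isoform i9 (882 bases) held 25.7% ± 2.87 of the TPM in endurant and 30.1% ± 1.995 in burst-performant individuals. Isoform i6 held 23.5% ± 13.5 in endurant and 35.6% ± 10.1 in burst-performant individuals. Isoform i4 held 15.96% ± 3.319 in endurant and 22.68% ± 1.661 in burst-performant individuals. By share of TPM, i9 led in A, E, B and C, i6 in D, F and H, and i3 in G. By share of estimated counts, i6 led in every frog except E and G, where i3 led with 35.78% in each. There i9 held 7.746% (frog G) to 11.49% (frog B). Isoform i3 had 64, 0, 155 and 131 counts in frogs A, D, E and G, against 0, 36, 0 and 0 counts in frogs B, C, F and H. The groups overlapped in i3, through frogs D and C.

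The usage of isoforms was also compared between single frogs, as the summed absolute difference of TPM shares divided so that 100 means no shared isoform. For *spib* the mean distance was 81.1% over the 16 pairs of an endurant and a burst-performant frog, and 16.5% over the 12 pairs within a group. For *baz1b* it was 67.6% between and 40.8% within groups. For *esrra* it was 52.9% between and 43.5% within groups. For *mapk8* it was 31.4% between and 21.0% within groups, and for *mef2a* 54.5% between and 54.0% within groups, so that frogs of 1 group differed in *mef2a* about as much as frogs of both. Over 5673 genes the median was 23.7% both between and within groups. The distance between groups stood at percentile 99.9 of those genes for *spib*, 99.2 for *baz1b*, 94.9 for *mef2a*, 93.7 for *esrra* and 66.1 for *mapk8*. Pairs of frogs share frogs, and the called isoforms enter this measure, so that it carries no test. The genes compared were not matched for number of isoforms or for depth. Among Trinity genes with 2 or more isoforms the median was 2, where *mef2a* had 15 (percentile 99.3) and *spib* 3 (percentile 50.9). How far the percentiles of distance follow isoform number was not tested.

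**Figure D3:**
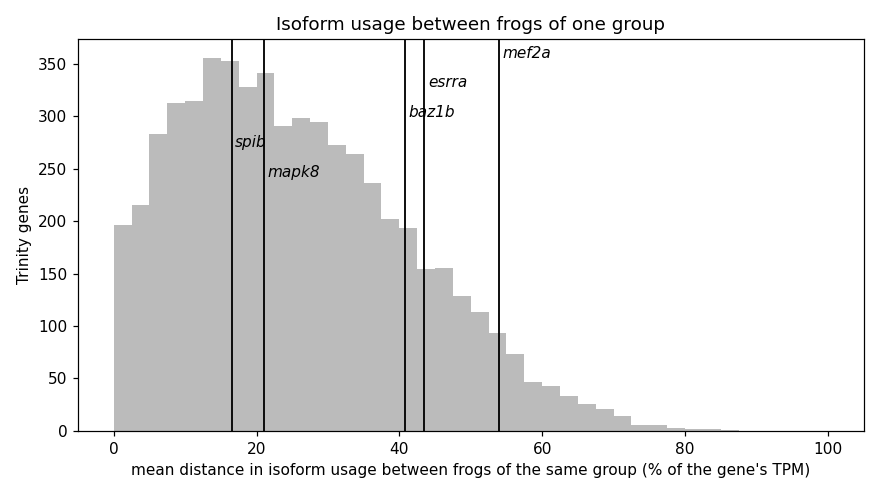
Histogram of the mean distance in isoform usage between frogs of the same group (% of the gene's TPM, x axis) over 5673 Trinity genes (number of genes, y axis), with lines at the 5 genes. Within groups *mef2a* lies at 54.0%, percentile 94.6, while *spib* lies at 16.5%, percentile 33.3. The genes were not matched for number of isoforms or for depth.

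Gene totals, as counts summed over the isoforms, do not depend on how read pairs were split among the isoforms of the same Trinity gene. Sharing of read pairs between different Trinity genes was not examined. None of the 5 totals passed the quasi-likelihood test, the exact test, DESeq2 or limma, where 0.0%, 0.126%, 0.0926% and 0.00561% of 35656 gene totals passed. At an unadjusted p under 0.05 the quasi-likelihood test held 4.43% of all gene totals and 0 of the 5. The groups overlapped in all 5, where 3.0% of all gene totals did not overlap. The total of *esrra* was 22.3, 39.8, 27.4 and 36.02 CPM across A, D, E and G (endurant), against 15.3, 7.10, 50.5 and 14.0 CPM across B, C, F and H (burst-performant). Frogs B, C and H lay below every endurant frog, and frog F lay above all 4 endurant frogs. The log2 fold change was 0.53 ± 0.52 (SE) and 1.35 without frog F.

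The total of *mapk8* was 29.4 ± 3.02 CPM in the endurant group and 27.8 ± 3.97 CPM in the burst-performant group, with a log2 fold change of 0.07 ± 0.22. The total of *mef2a* was 22.8 ± 5.17 CPM in the endurant group and 21.5 ± 7.49 CPM in the burst-performant group, with a log2 fold change of 0.08 ± 0.31, whose sign turned when frog B, D or H was left out. The total of *baz1b* was 31.6 ± 18.5 CPM in the endurant group and 27.9 ± 7.37 CPM in the burst-performant group. Its log2 fold change was 0.18 ± 0.39, and -0.32 without frog A, which had 58.8 CPM. The total of *spib* was 14.5 ± 3.32 CPM in the endurant group and 17.4 ± 5.98 CPM in the burst-performant group, with a log2 fold change of -0.26 ± 0.30. On TPM, which divides by isoform length, the *spib* total was 11.8 ± 2.67 TPM in endurant and 21.8 ± 9.33 TPM in burst-performant individuals.

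**Figure D4:**
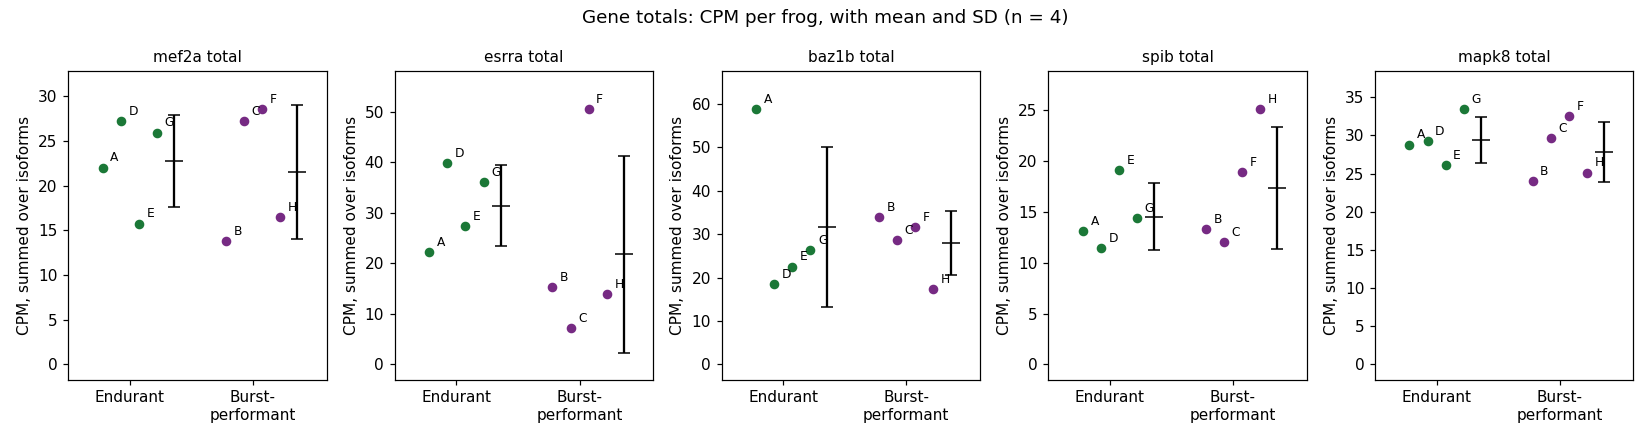
Gene totals in CPM per frog (points, with frog letters), with the mean and SD (n = 4), endurant left of burst-performant. The groups overlap in all 5 genes, frog F is highest for *esrra* at 50.5 CPM and frog A for *baz1b* at 58.8 CPM.

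The totals differed in how much they varied over the 8 frogs. The coefficient of variation was 11.8% for *mapk8*, which placed it at percentile 0.348 of the tested gene totals, and 27.1% for *mef2a*, 29.7% for *spib* and 44.3% for *baz1b*. It was 55.5% for *esrra*, above the median of 48.9% over all tested gene totals. Between the highest and the lowest frog, the CPM of *esrra* differed 7.11-fold and that of *mapk8* 1.39-fold.

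Over the 8 frogs, the totals of *mef2a* and *mapk8* went together, with a Pearson r of 0.911 on log2(CPM + 1) (2-sided exact permutation p = 0.00201, 0.0201 after Benjamini-Hochberg adjustment over 10 pairs) and a Spearman rho of 0.833 (exact p = 0.0154, adjusted 0.154). The 10 pairs of totals were computed after the values were seen. Without frogs B and E, the farthest from the median, r was 0.836. The adjusted p was 0.101 on log2(TPM + 1), with r = 0.854, and between 0.00595 and 0.216 with 1 frog left out, so that the call did not hold on TPM or without any of frogs A, B, C, E, F and H. With 4 frogs a group, no value was computed within groups. Among 35655 other gene totals, *mapk8* ranked 31 by its r with *mef2a*. The other 9 pairs had an r of at most 0.493 in size, with adjusted exact p of at least 0.844. Some of these also moved when the 2 farthest frogs were left out. Without frogs C and F, r was 0.801 for *esrra* and *mapk8* and -0.531 for *esrra* and *spib*. Without frogs B and E, it was -0.655 for *mef2a* and *spib*. In the remaining pairs it was at most 0.4435 in size.

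**Figure D5:**
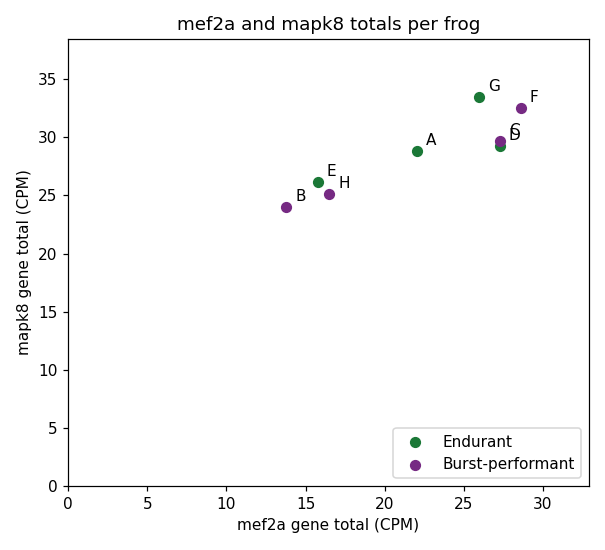
Gene totals of *mef2a* (CPM, x axis) and *mapk8* (CPM, y axis), 1 point per frog, both axes from 0. Frogs B, E and H are low in both and frogs C, D, F and G high in both, over both groups (r = 0.911 on log2(CPM + 1)).

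The gene totals most like each member over the 8 frogs were TR30396|c2_g1 for *mef2a* (r = 0.965), TR17019|c6_g1 for *esrra* (0.987), TR82322|c0_g1 for *baz1b* (0.983), TR1168|c0_g1 for *spib* (0.985) and TR17995|c2_g1 for *mapk8* (0.977). They are given as a description, picked as the highest of 35655 each, with no gene names in the files.

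Of the 4 performance traits, maximal acceleration was set against the totals. The groups overlapped in it only through frog A, since the other endurant frogs lay below every burst-performant frog, so that these correlations are tied to group as well. Distance and time split the frogs into both groups without overlap and velocity nearly so, and no pooled correlation was computed for them. None of the 5 relations passed after adjustment. The total of *esrra* had r = -0.670 (2-sided exact permutation p = 0.0657, adjusted 0.328) and rho = -0.452 (exact p = 0.268), and r was -0.114 without frogs A and C, the 2 farthest from the median acceleration. Leaving out frog C alone gave an r of -0.199, and leaving out frog A alone gave -0.704, so that the size of r rested most on frog C. Of the frogs left out singly, frog F gave the largest r in size, -0.780 (exact p = 0.0361, adjusted 0.181). Without frog F, which had the highest *esrra* total, rho was -0.786 (exact p = 0.0480, adjusted 0.240). For *baz1b* r was 0.462 (exact p = 0.254), for *mef2a* 0.355 (exact p = 0.415), for *spib* -0.331 (exact p = 0.433) and for *mapk8* 0.172 (exact p = 0.710), with adjusted p of at least 0.541. Their rho values were 0.524 (exact p = 0.197), 0.429 (exact p = 0.299), -0.214 (exact p = 0.619) and 0.167 (exact p = 0.703) in the same order. Without frogs A and C their r was 0.380, 0.108, 0.358 and 0.0763. Without frog C alone r was 0.787 for *baz1b* (adjusted exact permutation p = 0.191), 0.139 for *mef2a*, -0.0643 for *spib* and 0.0961 for *mapk8*. With each frog left out in turn, r ran from 0.351 to 0.787 for *baz1b*, from 0.139 to 0.511 for *mef2a*, from -0.541 to -0.0643 for *spib* and from 0.0643 to 0.382 for *mapk8*.

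The gene *ktn1* codes for kinectin, an anchor for kinesin on the endoplasmic reticulum, and the study names it beside *mef2a* and *esrra*. Of its 13 isoforms, 11 were tested. None passed the quasi-likelihood test (0.0% of all tested transcripts). There were 2 at an unadjusted p under 0.05 (3.66% of all), 2 called by the exact test (0.196%) and 2 by DESeq2 (0.275%). The study reported *ktn1* as up-regulated in endurant individuals from these same frogs, so that nothing is read from these counts. The isoforms called by both tests, i1 and i13, were higher in endurant individuals. Isoform i1 had 534 counts in endurant and 1 in burst-performant individuals, and isoform i13 had 523 and 0. Endurant frog E had no count of i13, so that the groups overlapped in it at 0. Over all isoforms, the *ktn1* total was 245.7 ± 69.1 CPM in the endurant group and 219.8 ± 57.7 CPM in the burst-performant group. The log2 fold change of this total was 0.15.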

How the data were processed

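The authors trimmed the paired-end reads with Trimmomatic, assembled them de novo with Trinity and estimated transcript abundance per frog with Kallisto. No source used here gives their versions. As deposited, the estimated counts are read pairs per transcript, shared by Kallisto among isoforms and not normalised. The deposited TPM values were made by the authors from these counts and the effective lengths, so that they keep no depth. The deposited tables also give other columns, the length and effective length in bases.

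Estimated counts were rounded and tested in edgeR 4.0.16 (R 4.3.3) with TMM factors and the quasi-likelihood test, keeping transcripts that exceeded a CPM of 1 in 2 or more frogs, and again on counts summed per Trinity gene. A call needed an FDR of at most 0.05 (Benjamini-Hochberg) and a change of at least 2 in size on the log2 scale, endurant minus burst-performant. The SE of a log2 fold change was its size divided by the square root of the quasi-likelihood F statistic. It was not estimated directly, and it is rough where a group is near 0 counts. The study entered TPM in edgeR, and since TPM are not counts the estimated counts were tested. Alternatives were edgeR's exact test, DESeq2 1.42.0, limma 3.58.1 (log2 of TPM with 1 or 0.1 added), size factors from DESeq2, filterByExpr, no filter, shares by estimated counts and each frog left out in turn.

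Isoform shares are shares of a gene's TPM in frogs with at least 20 counts of the gene. An isoform was named singly if the exact test called it, if it had the highest mean TPM of its gene in a group or if it held 20% of it in a frog, which held for 26 of 44. The other 18 held at most 19.4% in any frog. Among them, isoform i5 of *mef2a* is mentioned because it led the gene by TPM in frog B. Folds against a group at 0 used a floor of 3 counts over the group. Pooled folds used the TMM-scaled depth, as CPM do, a scale taken up after the values on both scales were seen, and which is also that of an earlier analysis of these files. With unscaled depth they were 22.2 for isoform i7 of *mef2a*, 77.8 for i7 of *esrra*, 249.1 for i3 of *baz1b*, 36.4 for i7 of *mapk8* and 55.1 for i2 of *spib*, the last with a scaled value of 52.7. Limits from 3 counts cover counting error only. Correlations used all 40320 pairings of 8 frogs (Python 3.11.15, scipy 1.17.1). The quasi-likelihood test, the exact test and DESeq2 were run on simulated counts with a log2 fold change of 4 in 200 transcripts or gene totals. The simulation had no sharing of read pairs among isoforms, and nothing about the members is read from it. The members and lists were chosen with earlier results of these data known. The libraries are 1 per frog, from separate animals.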

Additional observations from a re-analysis of the deposited data

Results flagged for a closer look

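Isoform i2 of *spib* stood apart in 1 burst-performant frog. It had 0.637 CPM in frog F and 0 CPM in frogs B, C and H, so that the gap of frog F to the others was the whole range of the group. Since the other frogs of the group are tied at 0, any count in a single frog would stand apart in this way however small, and the usual rate of about 1 in 20 groups by chance does not apply.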

How the results depend on the processing

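The count of called transcripts was 0 in the quasi-likelihood test, 109 in the exact test, 153 in DESeq2, 5 in limma on log2(TPM + 1), 5 on log2(TPM + 0.1) and 13 with no filter, and 0 to 0 with 1 frog left out. That of gene totals was 0, 45, 33, 2, 2 and 730 in the same order, and 0 to 1 with 1 frog left out (1 without frog C). The exact test and DESeq2 called all 5 isoforms by which the genes were chosen, limma on log2(TPM + 1) called isoform i2 of *spib*, and the fit with no filter called isoform i3 of *baz1b*. By estimated counts in place of TPM, the difference in share, endurant minus burst-performant, was -11.0 percentage points for isoform i7 of *mef2a* and -62.9 for i3 of *baz1b*, against -5.96 and -44.7 by TPM. With 1 frog left out, the log2 fold change of the *mef2a* total ran from -0.0938 to 0.23 and that of the *baz1b* total from -0.32 to 0.35. With no filter that of *mef2a* was -0.0135. For acceleration, r of *spib* was 0.358 without frogs A and C, and that of *mapk8* was -0.0351 on log2(TPM + 1). The r of *mef2a* and *mapk8* was 0.854 on log2(TPM + 1), where its adjusted exact p was 0.101, and 0.863 to 0.950 with 1 frog left out. The cause was not tested. Isoform i7 of *esrra* and of *mef2a* could not be fitted under filterByExpr, which left them out. No paired analysis was possible because each library came from a separate frog, and no label links a frog of one group to a frog of the other. The settings for the r of *mef2a* and *mapk8*, and the unscaled depth, were chosen after seeing the data.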
